A study of Solanum lycopersicum with 12 samples.

Results

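Roots take up phosphate, potassium and ammonium through separate proteins of the plasma membrane. Phosphate and ammonium enter by transporters, potassium enters mainly through channels and high-affinity carriers, and the driving force comes from proton pumps in the same membrane. In tomato these uptake genes are best known from the root surface, with the rhizodermis and its hairs as the main site, and the genes of high-affinity phosphate transport respond to the phosphate supply. The genes described here are PT1 and PT2 (LePT1 and LePT2), which encode high-affinity phosphate transporters, LKT1, which encodes an inward-rectifying potassium channel of the root, and AMT1-2 (LeAMT1;2), which encodes an ammonium transporter. They were chosen by name from the platform's annotation, as the probe sets with the symbol or synonym PT1, PT2 or LKT1 or one that starts with AMT1. The rule found 4 genes with 1 probe set each, out of 909 probe sets with a gene symbol and 10101 tested. RefSeq lists 3 tomato genes with an AMT1 name, and only AMT1-2 is matched to a probe set here.

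The study asked which endogenous genes accompany the altered Zn distribution of tomato that expresses AtHMA4, a Zn-exporting pump of Arabidopsis. Transcripts were hybridised to 12 Affymetrix tomato arrays in 4 groups of 3: epidermis and cortex (EC) and stele (S), cut by laser from root sections of wild-type tomato var. Beta (WT) and of the same variety carrying 35S:AtHMA4 (line 4, called L4 below). All plants were raised on agar for 10 days and then kept in nutrient solution with 5 μM Zn, for 15 days by the sample labels, which put the plants at 25 days old, and for a week by the paper's methods, and no group was grown at another Zn supply. The 35S promoter is active in most plant cells, L4 is a single transgenic line, and each sample pooled root pieces from 6 plants, so a root pool is the replicate. EC and S arrays of a genotype with one number are taken below to come from one pool, which the sources used here do not state outright.

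The values are log2 signals per probe set as the authors deposited them, and the number of arrays limits their precision. On these arrays the median log2 value was 3.72 to 4.02 and the lower quartile 2.37 to 2.81. The file gives no detection call, so a value below the lower quartile of its array is treated here as too low to give a reliable size. One array, L4 EC replicate 2, differed from the rest, with a mean log2 value of 13.88 over 18 spike-in control probe sets against 9.70 to 12.42 on the others, and an SD of 3.04 against 3.32 to 3.48. The marker genes separated the sectors little in WT: the 5 measured EC markers differed between EC and S by -0.32 to 0.37 on the log2 scale and the 3 measured S markers were all higher in EC, by 0.21 to 0.64, while a second probe set of the S marker SUT4 was lower in EC, at -0.71. In L4 3 of the 5 EC markers were higher in EC, within -0.91 to 3.26 (the latter EXPA8, an expansin gene), and 2 of the 3 S markers were higher in S. Limma called none of the 8 in either genotype. A lower signal from a sector can mean fewer cells of one type or less RNA per cell, and these cannot be told apart.

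All 4 uptake genes had their highest mean in the EC of WT, and 3 of the 4 had nearly equal means in L4 EC and L4 S. The mean of L4 was below that of WT in EC for each gene, by 1.23 to 2.65 log2 units in size. After adjustment for 10101 tests, limma called none of these differences. The highest of the 4 group means was in WT EC for 20.6% of all probe sets.

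PT1 was measured on all 12 arrays above the array's median. In WT EC it had log2 values of 5.94, 7.55 and 7.67 in replicates 1, 2 and 3, and in WT S of 5.25, 6.31 and 4.43. Replicate 1 was the low one of the EC arrays, and the sectors overlapped, since the highest S array lay above it. In L4 EC the values were 4.86, 6.24 and 4.82, and in L4 S 4.94, 4.49 and 5.05. L4 EC replicate 2, the array with the high spike-in signal, was the highest of the 6 L4 arrays. The group means were 7.06 ± 0.97 (SD, n = 3) in WT EC, 5.33 ± 0.94 in WT S, 5.31 ± 0.81 in L4 EC and 4.83 ± 0.30 in L4 S, so that WT EC came first and the other 3 differed by less than their spread.

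PT2 had a signal above the array's lower quartile in 1 group only, which is not a detection call. It exceeded the array's median on 1 of the 12 arrays, WT EC replicate 3. It was at 2.86, 3.65 and 4.86 in WT EC, and these 3 arrays were the only ones of the 12 on which it exceeded the lower quartile. In WT S it had 2.14, 2.26 and 2.30, in L4 EC 2.21, 2.42 and 2.19, and in L4 S 2.11, 2.12 and 2.32. Every WT EC array therefore lay above every array of the other 3 groups, and the share of all probe sets with this pattern was not counted. The group means were 3.79 ± 1.01 (SD, n = 3), 2.23 ± 0.086, 2.27 ± 0.13 and 2.18 ± 0.12, in the same order of groups. With 3 groups near the floor of the arrays, the log2 differences of PT2 have an uncertain size, and the means of WT S, L4 EC and L4 S cannot be ordered.

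LKT1 varied most, over 4.64 log2 units across the 12 arrays. In WT EC it was at 4.18, 7.39 and 8.28, and in WT S at 4.77, 6.49 and 4.37. In WT replicate 1 had the lowest EC value and the middle S value, and replicate 3 had the highest EC value and the lowest S value. The 6 L4 arrays lay in a narrow band, with 4.38, 3.85 and 3.68 in EC and 4.00, 3.64 and 3.95 in S. LKT1 was above the array's median on 9 of the 12 arrays. It was below the median on L4 EC replicates 2 and 3 and on L4 S replicate 2. Whether its L4 values lie above background was not tested, so the size of its genotype differences is uncertain. The WT EC array of replicate 1 fell inside the range of the L4 EC arrays, whereas in S each L4 array lay below each WT array. Group means were 6.62 ± 2.16 (SD, n = 3) in WT EC, 5.21 ± 1.13 in WT S, 3.97 ± 0.37 in L4 EC and 3.86 ± 0.19 in L4 S. The order of the means is WT EC, WT S, L4 EC and L4 S, with no neighbouring pair further apart than the larger of their SDs except WT S and L4 EC.

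AMT1-2 had a strong signal, above the upper quartile on all 12 arrays. It was at 11.03, 11.65 and 11.60 in WT EC and at 10.34, 10.77 and 9.67 in WT S, so the sectors of the WT did not overlap. The L4 arrays were spread more widely, with 11.15, 10.11 and 9.32 in EC and 9.28, 11.45 and 9.88 in S. The highest L4 EC array lay within the range of WT EC. The means were 11.43 ± 0.35 (SD, n = 3) in WT EC, 10.26 ± 0.55 in WT S, 10.20 ± 0.92 in L4 EC and 10.21 ± 1.12 in L4 S, and the last 3 of these do not differ beyond their spread.

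**Figure D1:**
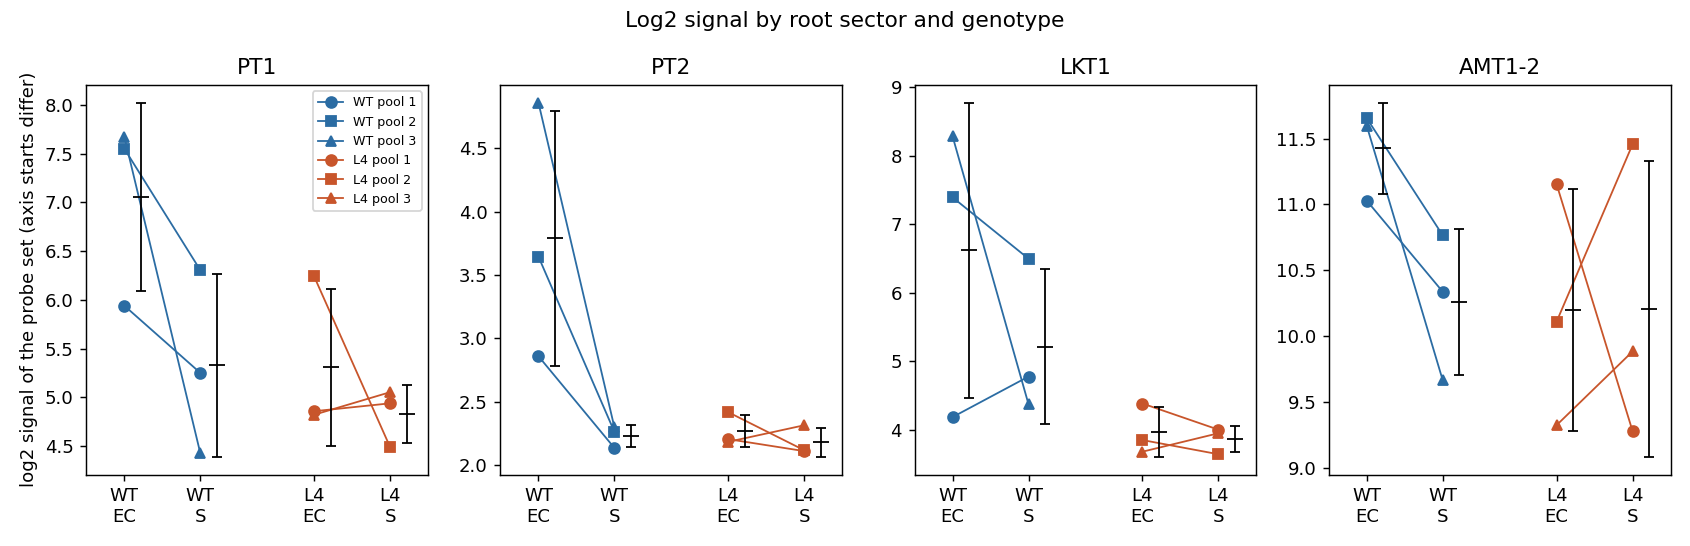
Log2 signal (y axis, with a different start in each panel) of PT1, PT2, LKT1 and AMT1-2 in EC and S of WT (blue) and L4 (orange); lines join the EC and S arrays of a root pool, and black bars give the mean and SD of 3 arrays. PT2 lies between 2.11 and 2.42 outside WT EC, and LKT1 between 3.64 and 4.38 on the L4 arrays.

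Genotypes were tested against each other in EC and in S by a limma fit of the 12 arrays that held no block. In EC the change from WT to L4 was -1.75 for PT1 (standard error 0.61), -1.52 for PT2 (standard error 0.40), -2.65 for LKT1 (standard error 0.94) and -1.23 for AMT1-2 (standard error 0.61) on the log2 scale. These differences of the means correspond to 3.36-fold for PT1, 2.86-fold for PT2, 6.27-fold for LKT1 and 2.35-fold for AMT1-2, lower in L4. A difference was called when it reached 1.2-fold with an adjusted p below 0.05, and none did, with adjusted p-values from limma of 0.616 for PT1, 0.525 for PT2, 0.616 for LKT1 and 0.715 for AMT1-2. The same rule called 0% of the 10101 probe sets in this comparison. The paper reported differentially expressed genes in both root sectors at these thresholds, by a test that the sources used here do not give. With the unadjusted p in place of the adjusted one, PT1, PT2 and LKT1 met the rule and AMT1-2 did not. That makes 3 of the 4 genes, where 4.83% of all probe sets were lower in L4 EC by the same unadjusted rule. The genes were chosen with earlier results of these data known, so this count is a description and not a test. The count rests on single arrays: without WT EC replicate 2, WT EC replicate 3 or L4 EC replicate 3 only PT2 met it. Quantile normalization left PT2 and LKT1, with a change of -1.15 for PT1. The fit shares the spread of all groups, and PT2 was near the floor outside WT EC. Its SDs there were 0.086 to 0.13, against 1.01 in WT EC, which makes its standard error small. In a limma fit of the 6 EC arrays alone the standard error of PT2 was 0.53, with an unadjusted p of 0.0328. For PT1 that fit gave 0.65 and an unadjusted limma p of 0.0409. Every L4 EC array lay below every WT EC array for PT2 alone, and for 6.31% of all probe sets. The median change of the 4 genes was -1.63, beside 0.075 over all probe sets. Many of all probe sets had low signals, since 5084 of the 10101 averaged a log2 value of 4 or more. L4 EC replicate 2 had an upper quartile of 6.81, against 7.83 to 8.26 on the other arrays. The part of these limits in the comparison was not tested.

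The size of these EC differences depended on single arrays, but not their direction. Without WT EC replicate 3 the change was -1.44 for PT1, -0.98 for PT2 and -1.82 for LKT1, and without WT EC replicate 1 it was -2.31, -1.98 and -3.87. For AMT1-2 the range was -1.71 without L4 EC replicate 1 to -0.79 without L4 EC replicate 3. Leaving out L4 EC replicate 2 gave -2.22 for PT1, -1.59 for PT2, -2.59 for LKT1 and -1.19 for AMT1-2, with no call. When limma weighted the arrays, in an estimate that stopped before it converged and gave L4 EC replicate 2 a weight of 0.0674, all 4 genes were called, with adjusted p-values of 0.00915 for PT1, 0.0187 for PT2, 0.0329 for LKT1 and 0.0179 for AMT1-2. Over the other alternatives no adjusted p of the 4 genes in EC met the threshold, and the highest was 0.928 for each. With these weights 6.76% of all probe sets were called as lower in L4 EC.

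In S the genotypes were closer. The change was -0.50 for PT1 (standard error 0.61), -0.052 for PT2, -1.35 for LKT1 (standard error 0.94) and -0.050 for AMT1-2, each with an adjusted p of 1.00 from limma, and 0% of the probe sets were called. None of the 4 genes was past the unadjusted threshold in S, where 1.32% of all probe sets were lower in L4 by that rule. LKT1 was the gene with every L4 array below every WT array, a pattern that 2.48% of all probe sets showed. The change ranged from -0.95 without WT S replicate 3 to -0.014 without WT S replicate 2 for PT1, and from -1.77 to -0.71 without the same arrays for LKT1. AMT1-2 changed sign without L4 S replicate 1 (0.41), against -0.67 without L4 S replicate 2.

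**Figure D2:**
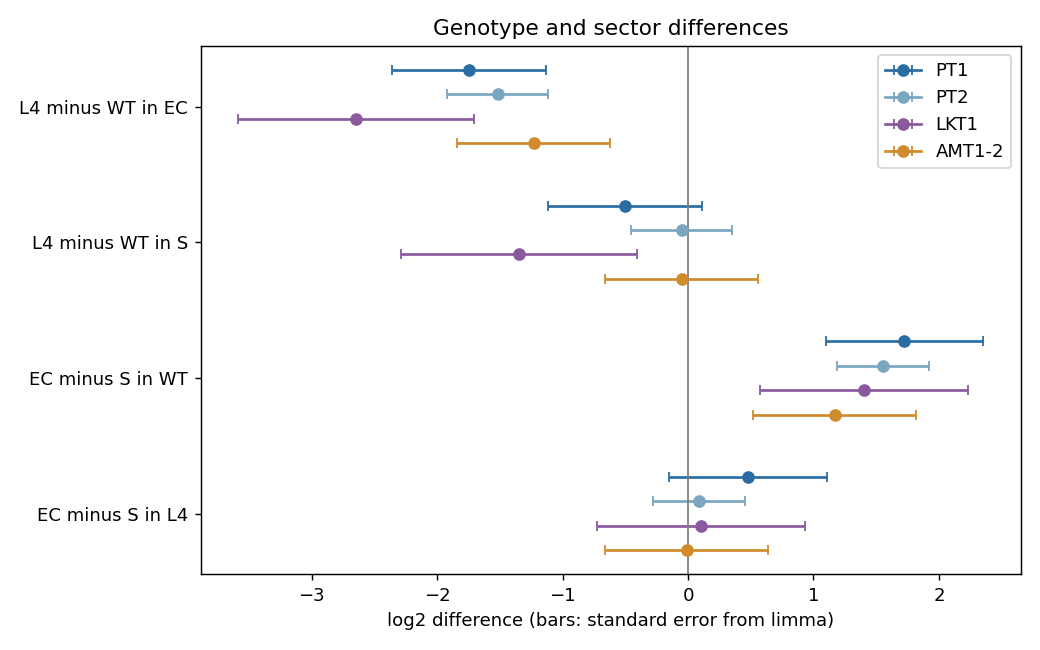
Log2 differences (x axis) of the 4 genes between genotypes in EC and S and between sectors in WT and L4, with the standard error from limma as bars. All 4 points lie below 0 for L4 minus WT in EC, between -2.65 and -1.23, and above 0 for EC minus S in WT, between 1.17 and 1.73.

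Root sectors were compared within root pools, with the pool as a block in limma. In WT the EC exceeded the S in all 3 pools for PT1, by 0.69, 1.24 and 3.24 log2 units, for PT2, by 0.72, 1.38 and 2.56, and for AMT1-2, by 0.69, 0.89 and 1.93. The share of all probe sets with EC above S in all 3 WT pools was not counted. LKT1 was lower in EC than in S in pool 1, at -0.59, and higher by 0.90 and 3.91 in the other two. The third pool gave the largest difference for each of the 4 genes. Its S array had a mean spike-in log2 value of 12.42, against 9.70 and 10.16 on the other WT S arrays, and the part of this in the difference was not tested. The mean differences were 1.73 for PT1 (standard error 0.63), 1.55 for PT2 (standard error 0.36), 1.40 for LKT1 (standard error 0.83) and 1.17 for AMT1-2 (standard error 0.65). Limma called none of them, with an adjusted p of 1.00 for each, and called 0% of all probe sets. PT1 and PT2 were past the unadjusted threshold, as were 1.62% of all probe sets with the higher value in EC. For PT2 and AMT1-2 every WT EC array lay above every WT S array, as for 3.32% of all probe sets. Without pool 3 the differences were 0.97 for PT1, 1.05 for PT2, 0.15 for LKT1 and 0.79 for AMT1-2. The genotype difference in EC and the sector difference in WT share the 3 WT EC arrays, so they are not independent of each other.

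In L4 no such difference between the sectors was seen in the means. EC minus S was 0.48 for PT1 (standard error 0.63), 0.088 for PT2 (standard error 0.36), 0.11 for LKT1 (standard error 0.83) and -0.010 for AMT1-2 (standard error 0.65). The adjusted p-values from limma were 0.956 to 0.998, and 0% of all probe sets were called. In L4 pools 1, 2 and 3 PT1 had -0.081, 1.75 and -0.23, and PT2, near the floor, had 0.094, 0.30 and -0.13. LKT1 had 0.38, 0.21 and -0.27, and AMT1-2 had 1.87, -1.34 and -0.56. Pool 2 was highest for both phosphate transporters and lowest for AMT1-2, and pool 3 was lowest for PT1, PT2 and LKT1. Each of these 4 means changed sign when 1 L4 pool was left out. None of the 4 genes was past the unadjusted threshold or had every L4 EC array above every L4 S array, where the shares of all probe sets were 1.17% and 1.97%.

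Over both genotypes the EC exceeded the S by 1.10 for PT1 (standard error 0.44), 0.82 for PT2 (standard error 0.26), 0.76 for LKT1 (standard error 0.59) and 0.58 for AMT1-2 (standard error 0.46), again with an adjusted p of 1.00 from limma and 0% of probe sets called. With 1 array left out these ranged from 0.72 to 1.36 for PT1, 0.57 to 1.03 for PT2, 0.13 (without either array of WT pool 3) to 1.25 for LKT1 and 0.11 (without either array of L4 pool 1) to 0.91 for AMT1-2. The test of whether the genotype difference itself differed between EC and S gave -1.25 for PT1 (standard error 0.89), -1.47 for PT2 (standard error 0.51), -1.30 for LKT1 (standard error 1.17) and -1.18 for AMT1-2 (standard error 0.92). None passed, with an adjusted p of 0.983 for each from limma and 0% called. PT2 alone was past the unadjusted threshold, with 1.86% of all probe sets lower by that rule. With 1 array left out the values ranged from -1.88 to -0.49 for PT1, -1.88 to -0.96 for PT2, -2.30 to -0.045 for LKT1 and -2.12 to -0.51 for AMT1-2, with the value nearest 0 reached without either array of WT pool 3 for the first 3 genes and of L4 pool 2 for AMT1-2. The difference of the genotype effects is therefore not shown for any of the 4 genes.

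**Figure D3:**
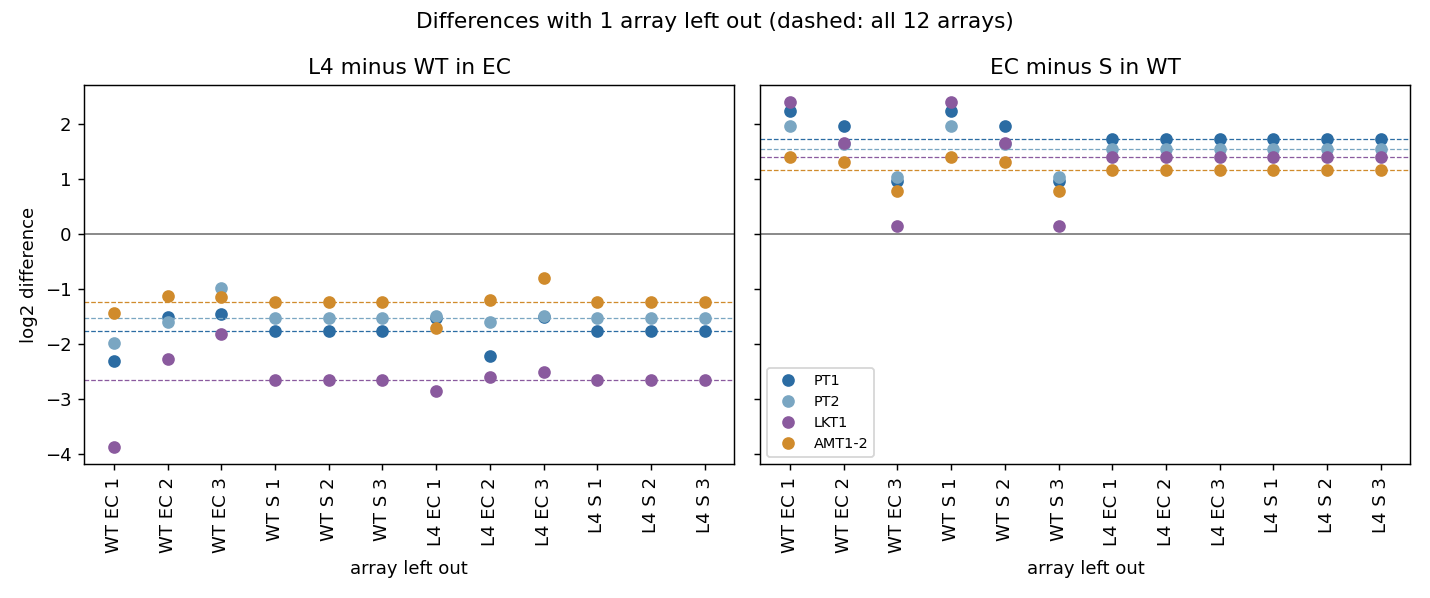
Log2 difference (y axis) of each gene for L4 minus WT in EC and for EC minus S in WT when 1 array (x axis) is left out; dashed lines give the value with all 12 arrays. The points stay below 0 on the left and above 0 on the right, and LKT1 moves most, from -3.87 to -1.82 and from 0.15 to 2.40.

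The likeness of the 4 genes to each other was described by their correlation. Over the 12 arrays Pearson's r was 0.842 between PT1 and PT2, 0.859 between PT1 and LKT1, 0.833 between PT2 and LKT1, and 0.578 to 0.603 between AMT1-2 and the other genes. Over the 6 WT arrays r was 0.764 to 0.971 for the 6 pairs. Over the 6 L4 arrays it was -0.25 to 0.18 for the 3 pairs without PT2. LKT1 lay in a narrow band on the L4 arrays, between 3.64 and 4.38, which limits its r there. PT2 was below the lower quartile on all L4 arrays and on the 3 WT S arrays. Nothing is therefore read from its r in L4, which was 0.871 with PT1, 0.063 with LKT1 and -0.11 with AMT1-2. Its r over the WT arrays and over all 12 rests on the 3 WT EC arrays. The difference in r between genotypes was not tested. These are descriptions over arrays that share pools, groups and processing.

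Among the 908 other annotated probe sets, those with the pattern most like PT1 over the 12 arrays were HT3, a hexose transporter gene (r = 0.864), LKT1 (r = 0.859) and LOC543986 (r = 0.856). For PT2 they were CEVI57 (r = 0.962), LOC543812 (r = 0.914) and LOC543597 (r = 0.872), the last of which stayed between 2.43 and 3.10. The probe sets closest to LKT1 were LysRS, a lysyl-tRNA synthetase gene (r = 0.936), NITF (r = 0.901) and LOC543986 (r = 0.895). AMT1-2 was closest to TCTP, the gene of the translationally controlled tumour protein (r = 0.876), LOC543830 (r = 0.861) and LOC543627 (r = 0.854). Within the genotypes LysRS and LKT1 had an r of 0.966 over the WT arrays and -0.39 over those of L4, and TCTP and AMT1-2 had 0.741 and 0.923.

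Other genes of mineral nutrition were taken from a list of names, of which 12 genes have an annotated probe set. They include the proton pump genes LHA1 and LHA2, the sulphate transporter genes ST1 and ST2, and the cation/proton exchanger genes NHX1 and NHX2. Also among them are the salt tolerance kinase gene SOS2, the glutamine synthetase genes gts1 and GS2 and the glutamate dehydrogenase gene gdh1. The phosphate starvation gene TPSI1 and PAP1 complete the list. In EC 9 of the 12 had a negative and 3 a positive change from WT to L4, with a median of -0.49, where 39.3% of all probe sets were negative. The 3 positive genes, PAP1, NHX1 and SOS2, had low signals, with means of 2.65, 2.27 and 2.36 in WT EC. L4 EC replicate 2 had the highest lower quartile of the arrays, 2.81, and its part in the share of 39.3% was not tested. In S 8 were negative and 4 positive, with a median of -0.077, where 52% of all probe sets were negative. None was called in either sector, and in EC gts1 alone was past the unadjusted threshold. EC minus S in WT was positive for 8 and negative for 4, where 41.7% of all probe sets were positive, with ST1 past the unadjusted threshold.

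Glutamine synthetase joins ammonium to glutamate, the step after ammonium uptake. Its gene gts1 had 13.59, 14.66 and 14.41 in WT EC and 11.83, 12.44 and 12.01 in L4 EC, so the genotypes did not overlap, as for 6.31% of all probe sets. The change was -2.13 (standard error 0.93, adjusted p = 0.693 from limma). The other glutamine synthetase gene, GS2, had 9.71, 10.42 and 9.73 in WT EC and 9.92, 8.65 and 9.98 in L4 EC, which overlap, with a change of -0.44 (adjusted p = 0.883 from limma). LHA1, which encodes a plasma membrane proton pump, had 10.89, 11.25 and 11.69 in WT EC and 10.70, 10.19 and 9.76 in L4 EC, again without overlap. Its change was -1.06 (standard error 0.48, adjusted p = 0.707), while that of LHA2 was -0.0032 (standard error 0.40). TPSI1, a gene induced by phosphate starvation, had 9.89, 13.12 and 13.57 in WT EC and 10.36, 12.17 and 9.63 in L4 EC, which overlap, with a change of -1.47 (standard error 1.24), or -2.62 without WT EC replicate 1 and -0.78 without WT EC replicate 3. Its sector difference in WT was -0.55 (standard error 0.80), between -0.91 and -0.15 with 1 array left out, the sign opposite to that of PT1 and PT2. ST1 was higher in EC than in S in all 3 WT pools, by 1.72, 1.54 and 3.43. How many of all probe sets share this direction was not counted. The mean difference of ST1 was 2.23 (standard error 0.76, adjusted p = 1.00 from limma). Its change from WT to L4 in EC was -0.55 (standard error 1.49), with 4.29, 8.40 and 9.73 in WT and 5.47, 7.61 and 7.69 in L4, and it was positive without WT EC replicate 3, at 0.58.

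**Figure D4:**
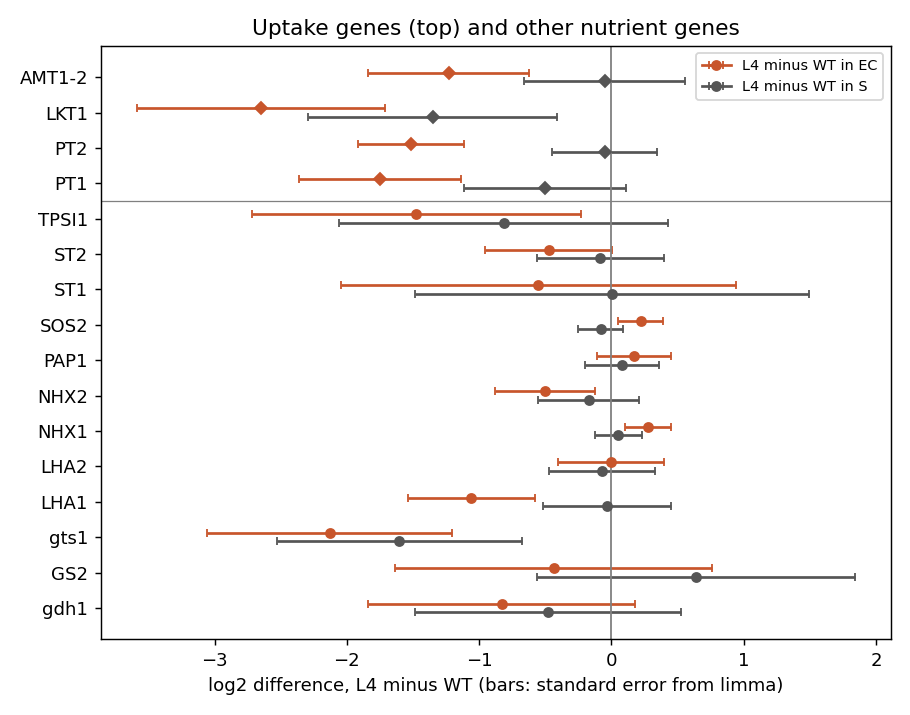
Log2 difference L4 minus WT (x axis) in EC (orange) and S (grey) for the 4 uptake genes (diamonds) and 12 other genes of mineral nutrition (circles), with the standard error from limma as bars. The uptake genes lie at -2.65 to -1.23 in EC, and the other genes at -2.13 to 0.28.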

How the data were processed

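Signals of 12 GeneChip Tomato Genome Arrays were recorded and processed by the authors with the GeneChip Command Console software and deposited as log2 values per probe set; the summarisation and normalization are not given in the sources used here. RNA was amplified before labelling. All 12 value columns were used as deposited. The 108 control probe sets among 10209 entered no test, and the remaining 10101 were all tested. Gene symbols came from the platform annotation (909 probe sets), updated for 885 through RefSeq. Where a listed gene has several probe sets, the one with the highest mean was used. Probe specificity was not tested.

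Tests were run with limma 3.58.1 (lmFit and eBayes) in R 4.3.3 on all 12 arrays: genotypes without a block (8 residual degrees of freedom), sectors with the root pool as a block (4). EC and S arrays that share genotype and number were taken as 1 pool, since roots were pooled per experiment and both sectors cut from them; that equal numbers mark a pool is not stated. Their deviations from the group means correlated at 0.062 to 0.63 in WT and -0.27 to 0.031 in L4. Of the 3 WT EC arrays 1 correlated best with the S array of its own number, and of the 3 L4 EC arrays 0 did. The pairing of the sectors is thus taken from the numbers and not shown by the values. The Benjamini-Hochberg adjustment took in all 10101 probe sets, with calls below 0.05 and from 1.2-fold, the paper's thresholds. The functions were tested on simulated data. Alternatives for the genotypes were a replicate block, a random pool block and the 6 arrays compared, and for the sectors the pool block left out. Alternatives for both were quantile normalization, median centring, a mean of at least 4, array weights, trend and robust eBayes, and each array left out.

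The genes, lists and tests were chosen with earlier results of these data known. Named are the genes of the rule, 12 other nutrient genes by name, with values for those near a described gene in role, and the 3 annotated probe sets of highest r for each gene. Figures used matplotlib 3.10.9 in Python 3.11.15.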

Additional observations from a re-analysis of the deposited data

How the results depend on the processing

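No difference of the 4 uptake genes was called by any alternative except array weights, which called all 4 as lower in L4 EC, at -2.39 for PT1, -1.56 for PT2, -3.13 for LKT1 and -1.95 for AMT1-2, and also gts1 (-2.38) and LHA1 (-1.38). Array weights called 1467 probe sets between the genotypes in EC and 2 in S, against 0 in each as reported. The fit to only the 6 arrays compared called 1 in EC. Without 1 array at a time the counts were 0 to 10 in EC and 0 to 3 in S. Which arrays moved the sizes most is given above, and the cause was not tested. Counts of calls between the sectors and for the difference of the genotype effects stayed at 0.

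Of 674 values of the uptake genes, gts1, LHA1, TPSI1 and ST1 under the alternatives, 637 kept direction and side of the threshold, 31 changed sign and 6 became called. Quantile normalization turned LKT1 (-0.023) and AMT1-2 (0.13) for EC minus S in L4 and ST1 for L4 minus WT in S (-0.060). Array weights turned AMT1-2 for EC minus S in L4 (1.04), LHA1 for EC minus S in WT (-0.054), and the difference of the genotype effects for LKT1 (0.028) and AMT1-2 (0.20). Without 1 array at a time, EC minus S in L4 ranged from -0.16 to 0.83 for PT1, -0.018 to 0.20 for PT2, -0.031 to 0.29 for LKT1 and -0.95 to 0.66 for AMT1-2. L4 minus WT in S ranged from -0.67 to 0.41 for AMT1-2, -1.56 to 0.16 for TPSI1, -0.50 to 0.39 for LHA1 and -1.33 to 0.81 for ST1. L4 minus WT in EC ranged from -2.14 to 0.58 for ST1, and EC minus S in WT from -0.18 to 0.64 for LHA1.

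The replicate numbers were not treated as pairs of the genotypes. Deviations of same-numbered arrays correlated at -0.10 to 0.28 in EC, where 1 of 3 WT arrays correlated best with its own number, and at 0.070 to 0.38 in S, where 2 of 3 did. Whether same-numbered arrays of the genotypes share an experiment was not tested. With the replicate block limma called 0 probe sets in EC and 0 in S. Between the sectors 0 were called also when the root pool block was left out. A filter that kept the 5084 probe sets averaging 4 or more removed PT2 and kept the other 3 genes. The signal limits PT2, which was near the floor in 3 of 4 groups.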

Other observations

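GS2, the gene of plastid glutamine synthetase, had log2 values of 10.04, 7.98 and 5.05 in WT S replicates 1, 2 and 3 and of 10.22, 7.92 and 6.85 in L4 S, with replicate 3 lowest in both genotypes. For gdh1 the values were 9.68, 10.57 and 7.90 in WT S and 10.12, 10.18 and 6.42 in L4 S, again with replicate 3 lowest. TPSI1 went the other way, with 11.24, 12.95 and 14.05 in WT S and 9.98, 12.60 and 13.22 in L4 S. The S arrays of replicate 3 also had the highest spike-in means of the S arrays, 12.42 in WT and 11.90 in L4 against 9.70 to 10.36, and the part of this signal in these values was not tested.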
